A study of Mus musculus with 48 samples.

Results

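The genes described here were the clustered histone genes of the mouse, the rows of a gene count table whose symbol starts with Hist1h, Hist2h, Hist3h or Hist4h. One such row marked -ps, a pseudogene, was left out. The rule, which used no measured value, gave 69 of the 49568 genes in the table. They comprised 6 genes for the linker histone H1, 20 for H2A, 18 for H2B, 12 for H3 and 13 for H4. In the GRCm38 assembly, 56 of them lie on chromosome 13, 10 on chromosome 3, 2 on chromosome 11 and 1 on chromosome 6.

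The libraries were 48 bulk RNA-seq libraries of RAW264.7, an established mouse macrophage line. Cells of all groups were cultured for 72 h in DMEM, and 8 groups were labelled PBS, LE, SE, PE, IFNy, LE+IFNy, SE+IFNy and PE+IFNy. PBS cells received neither agent. LE, SE and PE are synthetic peptides from the same stretch of the HLA-DR beta chain, encoded by a lupus-risk, an arthritis-risk and a protective allele, each given at 100 µg/ml. The labels give LE as 65-79*0301, while SE is named 65-79*0401 and PE is named 65-79*0402. IFNy is interferon gamma, a macrophage-activating cytokine, given at 5 ng/ml, alone or with a peptide. Each group had 6 libraries, of which 3 carried a letter as their library label (letter-labelled) and 3 a label starting with HLA (HLA-labelled). One cell line served for every group, so that p-values measure the spread between cultures of this line.

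Histones package DNA into nucleosomes, each wound around a core of H2A, H2B, H3 and H4, while H1 binds where the DNA enters and leaves. The clustered genes supply the bulk of histone protein during DNA replication. Their mRNAs are the well-known exception to polyadenylation in animal cells. They end just after a short stem-loop, which the stem-loop binding protein SLBP holds and which takes the place of a poly(A) tail. Some clustered genes also yield a longer, polyadenylated transcript, especially in cells that have stopped dividing. The study's methods name a kit that captures RNA by its poly(A) tail. The labels name the kit differently and give the same protocol for every library, and RNAs without poly(A) tails were abundant in the HLA-labelled ones (37540 to 61567 CPM, the count scaled to the library total, for the nuclear ones listed).

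The stem-loop could be read from the transcripts. A run of 16 bases of the form GGNNNTNNNNANNNCC whose first 6 and last 6 bases pair, with G-U pairs allowed, was sought in the 150 bases after the stop codon. It was found in 46 of the 69 genes and in 0.47% of 21699 protein-coding genes, the histone genes included. Of the 23 genes without a match, 19 had under 60 annotated bases after the stop codon, so that the window was short or empty. Of the 46 loops, 26 were the same 16 bases, as in Hist1h1c. The loops of the 5 members with the highest letter-labelled counts that had one are shown first, followed by Hist1h4d and Hist1h1e, the members with the highest means in the HLA-labelled libraries. The loop is in capitals, with the bases on either side in lower case, 5′ to 3′ on the gene's strand, from GENCODE M21 transcripts on GRCm38.
Hist1h1c, chr13:23739507-23739532, plus strand: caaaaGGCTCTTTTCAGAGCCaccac
Hist1h4i, chr13:22040961-22040986, minus strand: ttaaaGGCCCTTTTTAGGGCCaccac
Hist3h2a, chr11:58955167-58955192, plus strand: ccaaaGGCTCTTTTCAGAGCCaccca
Hist2h3c2, chr3:96238480-96238505, minus strand: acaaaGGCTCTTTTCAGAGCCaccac
Hist1h4h, chr13:23531453-23531478, plus strand: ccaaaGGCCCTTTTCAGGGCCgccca
Hist1h4d, chr13:23581945-23581970, plus strand: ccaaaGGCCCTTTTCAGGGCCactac
Hist1h1e, chr13:23621777-23621802, minus strand: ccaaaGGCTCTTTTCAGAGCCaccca

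The hexamer AATAAA, the usual signal for cleavage and polyadenylation, lay in the last 50 annotated bases of a transcript in 14 of the 69 genes, against 66.2% of protein-coding genes. The 3 members that carry it and had the most letter-labelled counts are shown with the hexamer in capitals. In Hist1h1c it lay 854 bases after the stop codon, far beyond the stem-loop, which began 24 bases after it.
Hist1h1c, chr13:23740332-23740357, plus strand: gtatgcttctAATAAAaagcgtttag
Hist2h2be, chr3:96223707-96223732, plus strand: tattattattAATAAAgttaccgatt
Hist3h2a, chr11:58956787-58956812, plus strand: gtatatgcccAATAAAataagagtac

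Library totals ran from 16498562 to 26929356 counts in the letter-labelled libraries and from 14115928 to 42574154 in the HLA-labelled ones. A list of 20 IFN-γ target genes checked the labels. Its mean level, as log2 of CPM, was 1.38 to 1.72 in the 12 letter-labelled libraries without IFN-γ and 6.92 to 7.24 in the 12 with it. In the HLA-labelled libraries, 12 of 24 went against their label. Those labelled LE and PE had the level of IFN-γ-treated cells, and those labelled IFNy and SE+IFNy had that of untreated cells. Groups were therefore compared in the letter-labelled libraries, and the HLA-labelled ones, as labelled, enter those comparisons only as an alternative given at the end. The 7 macrophage marker genes summed to 4435 CPM or more in every library, and 11 markers of other cell types to 1.92 or less.

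The clustered histone genes were far more abundant in the HLA-labelled than in the letter-labelled libraries. Their sum was 30.1 to 98.3 CPM in the letter-labelled libraries, with a median of 63.5, and 1210 to 5006 in the HLA-labelled ones, with a median of 2455. The ranges did not overlap, and the mean was 43.2-fold higher in the HLA-labelled libraries. Within groups as labelled, this ratio ran from 18.9 in PBS to 75.0 in SE+IFNy, and over the 4 groups that did not go against their IFN-γ label from 18.9 to 65.6 in LE+IFNy. At least 10 counts in every library of a series were reached by 5 members in the letter-labelled and 54 in the HLA-labelled libraries. In a single letter-labelled library 27 to 49 members had any read, and in a single HLA-labelled library 61 to 66 did.

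**Figure D1:**
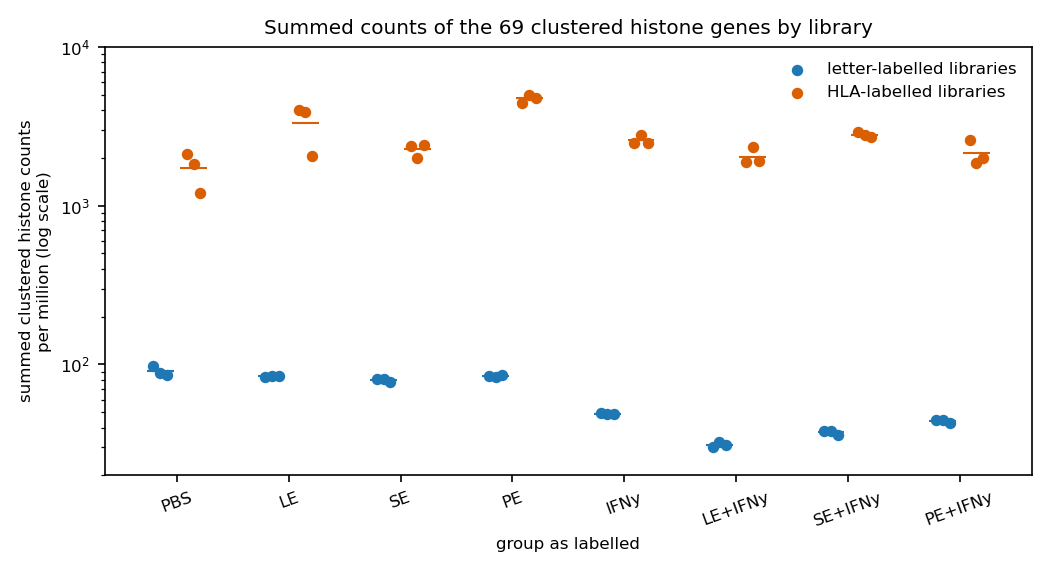
Sum of the 69 clustered histone genes in CPM of the library (log scale) in each of 48 libraries, by group as labelled, with horizontal lines at the mean of 3. The letter-labelled libraries (blue) lie between 30.1 and 98.3 and the HLA-labelled ones (orange) between 1210 and 5006.

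Of the 69 members, 66 had a higher mean in CPM in the HLA-labelled libraries, 1 a lower one, and 2 no read in any library. The rise was tested with edgeR's quasi-likelihood test over the means of all 8 groups, and a gene was called at an adjusted p under 0.05 and a change over 1.5-fold. The test covered 58 members, of which 57 were higher, 0 were lower and 1, Hist2h2be, changed by less than 1.5-fold. In this comparison 34.0% of all 15139 genes tested were called higher, and 56.1% were called in either direction. The median log2 fold change was 8.41 over the 58 members and 0.06 over all genes tested. Most of the 58 passed the filter on low counts through the HLA-labelled libraries, where they were high, so these figures describe them and do not add support. Every HLA-labelled library lay above every letter-labelled one for 54 of the 58, as it did for 14.8% of all genes tested. Whether the label series were prepared alike was not tested. In such bulk libraries the share of cells in S phase and the histone mRNA per cell cannot be told apart, here or in the later comparisons.

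**Figure D2:**
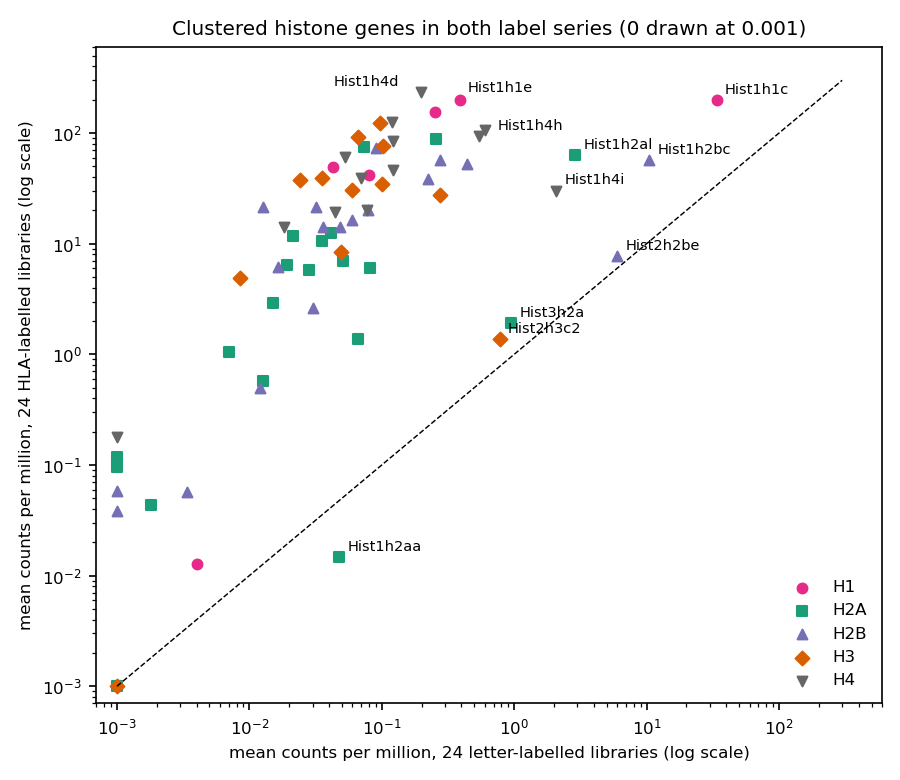
Mean CPM of each of the 69 members over 24 letter-labelled libraries (horizontal) and 24 HLA-labelled libraries (vertical), both on log scales, with the marker giving the histone family and the dashed line marking equal levels. All but 3 members lie above the line, Hist1h2aa lies below it, and the 2 with no read sit at its lower end.

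The H1 genes showed how unequal the shift was. Hist1h1c, which encodes the linker histone H1.2, was 13.2 to 55.4 CPM in the letter-labelled libraries and 102.2 to 370.0 in the HLA-labelled ones. Its log2 fold change was 2.65 ± 0.05 (SE, adjusted p = 1.23e-36, edgeR). Hist1h1e, which encodes H1.4, was 0.0820 to 0.985 CPM in the letter-labelled libraries and 95.6 to 373.5 in the HLA-labelled ones, so that both H1 genes had nearly the same HLA-labelled mean, 199.1 CPM. Hist1h1d, another linker histone gene, had a mean of 0.250 in the letter-labelled and 156.6 in the HLA-labelled libraries. Hist1h1t, the testis H1 gene, had 2 reads in all letter-labelled and 8 in all HLA-labelled libraries. Hist1h1e overlaps Hist1h2be on the same strand, and reads from their shared part cannot be assigned to either.

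Among the H2B genes the smallest and some of the larger shifts stood side by side. Hist2h2be, whose annotated transcript runs 2192 bases past the stop codon and for which no stem-loop was found, was 2.76 to 10.9 CPM in the letter-labelled libraries and 4.19 to 12.99 in the HLA-labelled ones. The series overlapped, and its log2 fold change was 0.43 ± 0.05 (SE). In the libraries labelled PBS alone, 3 against 3, it was -0.08, though the label check covered IFN-γ and not the peptides. Hist1h2bc, whose annotated 3′ end is spliced onto a second exon, was 4.76 to 16.9 CPM among letter-labelled and 30.7 to 80.9 among HLA-labelled libraries, a log2 fold change of 2.60 ± 0.06. Hist1h2bf, in contrast, had a mean of 0.0127 in the letter-labelled and 21.4 in the HLA-labelled libraries.

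The H2A genes included Hist1h2al, which lies apart from the main cluster at chr13:51202727-51203065 on the minus strand and whose annotation ends at its stop codon. It was 0.820 to 6.61 CPM among letter-labelled and 35.7 to 114.6 among HLA-labelled libraries. Hist3h2a rose by 1.05 ± 0.11 on the log2 scale, the smallest change among tested H2A genes, and its ranges overlapped, 0.274 to 1.95 against 0.653 to 3.11 CPM. Hist2h2ac, by contrast, went from a mean of 0.256 to 89.3. Hist1h2aa, a testis H2A gene, was the member with a lower mean in the HLA-labelled libraries, with 26 reads in all letter-labelled and 8 in all HLA-labelled libraries, and was too low to be tested.

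The H3 and H4 genes were low in the letter-labelled libraries. No H3 gene reached 10 counts in every letter-labelled library, and Hist1h4i was the one H4 gene that did. Hist1h4d had the highest HLA-labelled mean of all members, 236.2 CPM, against 0.197 in the letter-labelled libraries, a fitted log2 fold change of 10.23 ± 0.11 (SE), given as a description, and it had at most 9 counts in any letter-labelled library. Hist1h3e went from a mean of 0.0969 to 123.7 and Hist4h4 from 0.119 to 127.1. Hist2h3c2 was the H3 exception, with means of 0.778 and 1.37 and a log2 fold change of 0.96 ± 0.11. Of its 100-base windows, 61.6% also occur, on either strand, in a transcript of another gene, so its unique counts may be uncertain.

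The make-up of the histone counts differed accordingly. H1 genes took 43.2% to 66.0% of the histone counts in the letter-labelled libraries and 20.3% to 27.3% in the HLA-labelled ones. H4 genes took 4.41% to 10.8% against 28.9% to 35.5%, and H3 genes 0.983% to 3.91% against 15.3% to 19.9%. H2B genes took 20.8% to 35.1% against 12.6% to 16.4%. None of these ranges overlapped, whereas those of H2A did, at 4.22% to 10.4% against 9.05% to 12.6%. Hist1h1c alone took 41.0% to 64.1% of the histone counts in the letter-labelled libraries. Without it the summed ratio between the series was 87.2 rather than 43.2.

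Levels were also divided by annotated length, which makes these genes comparable only in part. The annotated exons held 339 bases in Hist1h2al, with 0 after the stop codon, and 7425 in Hist1h1d, with 4931 after it. Windows shared with other genes may also lower the unique counts of some members. As CPM per kilobase of annotated exon, the 12 highest members in the letter-labelled libraries were Hist1h1c at 21.7, Hist1h2bc at 8.999, Hist1h2al at 8.54, Hist1h4i at 2.85, Hist2h2be at 2.28, Hist1h4h at 1.28, and then Hist2h3c2, Hist2h2bb, Hist2h2ac, Hist1h2bg, Hist3h2a and Hist1h4k between 0.762 and 0.391. On the same scale Hist1h4h was 228.5 and Hist1h1c 127.6 in the HLA-labelled libraries, so that only their order per length was the opposite. In CPM, Hist1h1c was the higher in both series, with means of 33.9 against 0.603 and 199.1 against 107.4. The annotated exons held 1560 bases in Hist1h1c and 470 in Hist1h4h. The members with AATAAA near the annotated end had a median of 0.0737 CPM over 14 genes in the letter-labelled libraries, against 0.0507 over the other 55. Their highest means were 33.9 and 10.4 CPM. At least 10 counts in every letter-labelled library were reached by 2 of the 14 and 3 of the 55. The median ratio between the series was 74.2 for those with AATAAA against 343 for those without. These medians are descriptions, and the annotation of 3′ ends was incomplete for many members.

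Some members carried few or no reads. Hist2h2aa1 and Hist2h3c1 had 0 counts in all 48 libraries. All of their 100-base windows occur, on either strand, in a transcript of another gene. Only uniquely aligned reads were counted, so a count of 0 need not mean that they were not expressed. Hist1h2ao, Hist1h2ap, Hist1h2bq, Hist1h2br and Hist1h4m had 0 counts in all 24 letter-labelled libraries. Against a floor of 3 counts over those libraries, Hist1h4m was at least 31.4-fold higher in the HLA-labelled ones, and the other 4 at least 5.84-fold to 19.99-fold. In these 5, 86.4% to 94.8% of the windows are shared with another transcript.

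Within the HLA-labelled libraries the sum of the members was 1210 to 2124 CPM in those labelled PBS, 2060 to 4003 in LE, 1999 to 2429 in SE, 4465 to 5006 in PE, 2480 to 2793 in IFNy, 1879 to 2338 in LE+IFNy, 2710 to 2899 in SE+IFNy and 1869 to 2587 in PE+IFNy. The libraries labelled PE lay above all others of this series. Those labelled LE and PE had the highest means, and both go against their IFN-γ label, so no direction is drawn from these groups.

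Other RNAs moved between the series in the same direction. A list of 22 RNAs was taken as without poly(A) tails. All 21 in the table were tested and called higher in the HLA-labelled libraries, with a median log2 fold change of 9.71. Scarna13, a small RNA of the Cajal body, had means of 0.152 and 134.8 CPM. Rn7sk, the RNA of the 7SK particle that restrains transcription elongation, had means of 5.56 and 18671 CPM. The mitochondrial ribosomal RNA mt-Rnr2, also on the list though its lack of a tail was not examined, had means of 172.8 and 17100. The sum of the listed nuclear RNAs was 4.97 to 44.1 CPM among letter-labelled and 37540 to 61567 among HLA-labelled libraries. The part of this difference in that of the histone genes was not tested, and the sources used here name no difference in handling between the series.

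Genes that work with the histones moved in both directions and by less. Of 10 tested variant histone genes whose mRNAs carry poly(A) tails, 1 was higher and 4 were lower, with a median log2 fold change of -0.31. H2afz, the gene of the variant H2A.Z, was -0.43 ± 0.02 (SE) and H3f3b, one of the genes of H3.3, was 0.22 ± 0.02, both under 1.5-fold. Of 18 genes that transcribe histone genes or process their 3′ ends, 5 were higher and 3 lower. Slbp was 0.47 ± 0.04, under 1.5-fold, while Npat, the coactivator of histone gene transcription, rose by 1.67 ± 0.04. Of 14 histone chaperones 2 were higher, among them Atrx at 2.79 ± 0.06, and 3 lower, among them Daxx at -0.73 ± 0.03. Of 31 S phase genes 4 were higher and 4 lower, with a median of -0.18, and Mki67, a proliferation marker, rose by 1.09 ± 0.06.

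**Figure D3:**
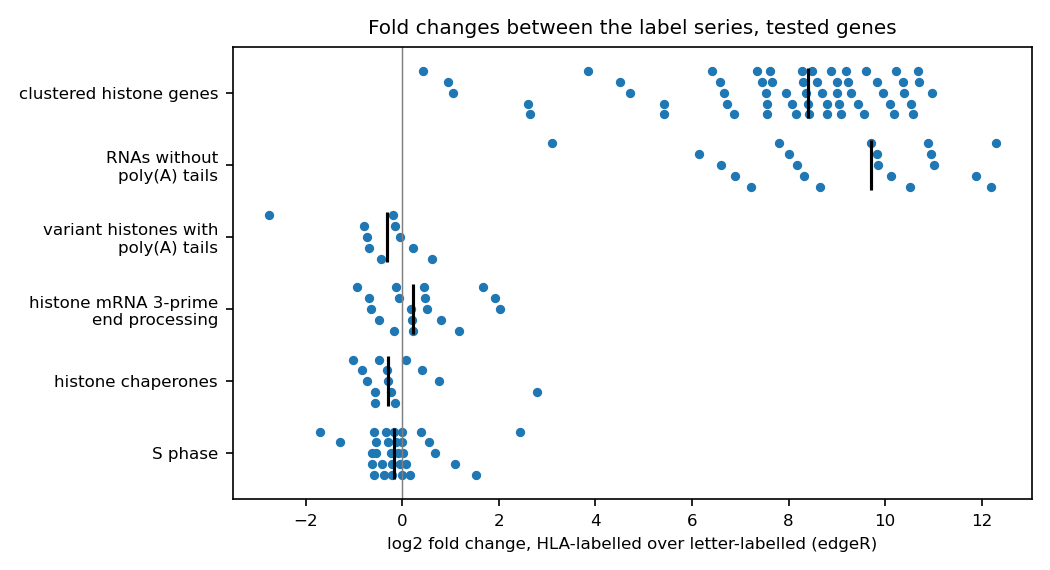
Log2 fold changes (edgeR) between the HLA-labelled and letter-labelled libraries for the tested genes of 6 lists, 1 point per gene, with black lines at the medians. The 58 clustered histone genes and the 21 RNAs without poly(A) tails have medians of 8.41 and 9.71, while the medians of the other 4 lists lie between -0.31 and 0.22.

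Across the groups of the letter-labelled libraries, the summed histone counts were lower with IFN-γ. They were 86.2 to 98.3 CPM in PBS, 83.0 to 85.1 in LE, 77.6 to 81.2 in SE and 83.7 to 86.3 in PE. With IFN-γ they were 48.5 to 49.5 in IFNy, 30.1 to 32.3 in LE+IFNy, 35.8 to 38.1 in SE+IFNy and 42.6 to 44.9 in PE+IFNy. Every library with IFN-γ lay below every library without it, and the 4 groups with IFN-γ did not overlap one another. Without Hist1h1c (an alternative chosen after seeing the data), the sum was 16.5 to 20.7 CPM with IFN-γ and 33.2 to 42.9 without it, and the 4 groups with IFN-γ overlapped one another. In this fit of 24 libraries 12 members passed the filter on low counts, and the other 57 could not be compared between groups at this depth. The 12 were Hist1h1c, Hist1h1e, Hist1h2al, Hist3h2a, Hist1h2bc, Hist1h2be, Hist1h2bg, Hist2h2be, Hist2h3c2, Hist1h4h, Hist1h4i and Hist2h4.

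IFN-γ alone lowered 8 of the 12 tested members and raised 0, against 8.37% of all 13096 genes tested that were called lower and 18.5% called in either direction. The median log2 fold change was -0.86 over the 12 and -0.01 over all genes tested. The 8 were Hist1h1c, Hist1h2bc, Hist2h2be, Hist1h2al, Hist2h3c2, Hist1h4i, Hist1h4h and Hist1h1e. Leaving out replicate 1, 2 or 3 of every group left 5, 7 and 4 of them called. Hist1h4i, Hist1h4h, Hist1h1e and Hist2h3c2 each lost the call in 2 of the 3 leave-outs.

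Hist1h1c was 55.4, 46.8 and 45.4 CPM in the PBS libraries and 31.4, 27.7 and 31.4 in the IFNy libraries. The groups did not overlap, and its log2 fold change was -0.69 ± 0.07 (SE, adjusted p = 3.30e-08, edgeR). Hist1h2bc was 14.3, 15.9 and 13.5 in PBS and 5.98, 7.16 and 4.76 in IFNy, a log2 fold change of -1.27 ± 0.12. Hist2h2be was 10.9, 9.79 and 9.52 in PBS and 4.63, 4.38 and 4.43 in IFNy, a log2 fold change of -1.15 ± 0.12. These genes had 94 counts or more in every one of those libraries. Hist1h2al was 3.59, 3.72 and 4.03 in PBS and 0.820, 1.47 and 1.18 in IFNy, a log2 fold change of -1.69 ± 0.25 that was the largest among the 8. The other 4 called members had 58 or fewer counts in any of those libraries, with log2 fold changes of -0.69 to -1.51.

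The same comparison was made within each peptide, in separate libraries. LE+IFNy against LE lowered 9 of 12 members, where 15.8% of all genes tested were lower and 34.7% called in either direction. SE+IFNy against SE lowered 6 of 12 (10.9% and 26.0%) and PE+IFNy against PE lowered 6 of 12 (8.94% and 20.7%), and 0 members were raised in each. The medians over the 12 were -1.21, -0.88 and -0.86. Hist1h1c, Hist1h2bc, Hist2h2be and Hist1h2al were called in all 4 IFN-γ comparisons and kept the call in each leave-out of a replicate number. For these 4 genes every one of the 12 libraries with IFN-γ lay below every one of the 12 without it, a pattern seen in 8.47% of all genes tested. Hist1h2bc, for example, was 4.76 to 7.16 CPM with IFN-γ and 12.9 to 16.9 without it, with no library in between. Hist1h4i, Hist2h3c2 and Hist3h2a were called in 3 of the 4 comparisons each, and Hist2h4 and Hist1h2be in none. Hist3h2a kept its call in 1 of 3 leave-outs for LE+IFNy against LE, 1 of 3 for SE+IFNy against SE and 2 of 3 for PE+IFNy against PE. Hist1h4h, called in LE+IFNy against LE, kept that call in 1 of 3. Hist1h2bg, called in LE+IFNy against LE, was not called in any leave-out in which it was tested.

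**Figure D4:**
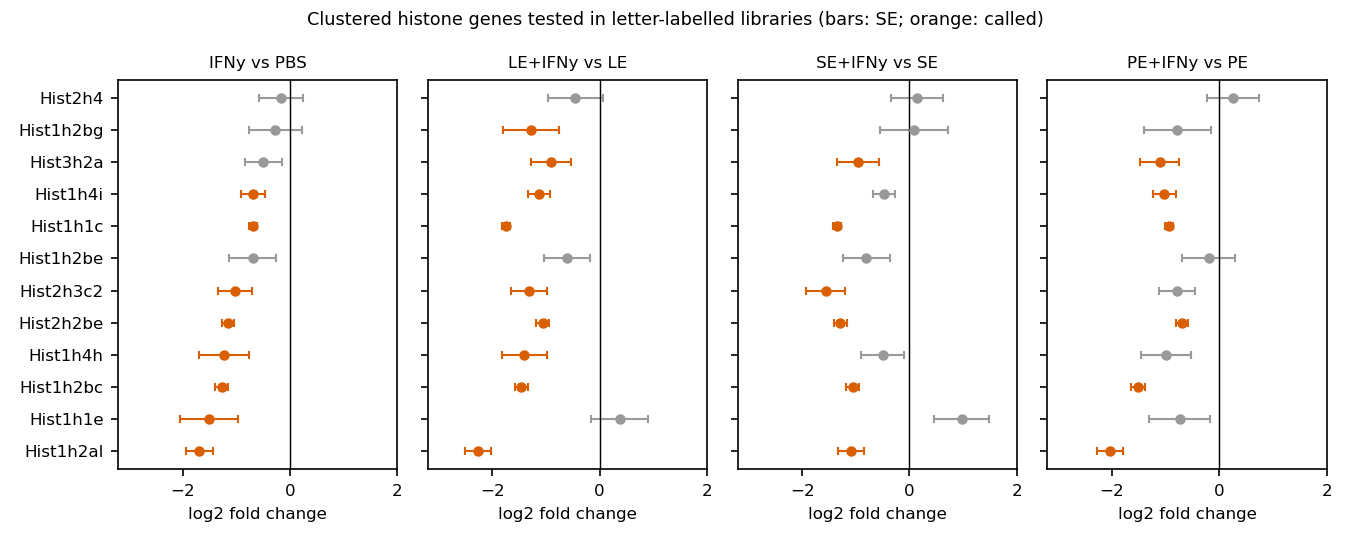
Log2 fold changes (horizontal) with their standard errors for the 12 members tested in the letter-labelled libraries, in the 4 comparisons of IFN-γ against no IFN-γ. Called members are orange; Hist1h1c, Hist1h2bc, Hist2h2be and Hist1h2al are called in each panel and all lie below 0.

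Other transcripts moved with IFN-γ as well. Of 8 RNAs without poly(A) tails that could be tested, 4 fell in IFNy against PBS, with a median log2 fold change of -0.97, Rn7sk among them at -1.90 ± 0.41. Their nuclear members summed to 25.5 to 44.1 CPM in PBS and 7.12 to 15.4 in IFNy, while the ranges of the peptide groups overlapped, with 8.28 to 21.2 in SE and 6.66 to 18.0 in SE+IFNy. Their part in the histone result was not tested. Of 10 variant histone genes 3 fell, among them H3f3a at -0.85 ± 0.06, and H2afz was -0.04 ± 0.06. Of 31 S phase genes 7 fell, among them Mcm6, a subunit of the replicative helicase, at -1.46 ± 0.16, and Mki67 was 0.03 ± 0.13. Of the 18 transcription and 3′ end processing genes 1 fell, Zfp473 at -1.11 ± 0.37, and Slbp was -0.36 ± 0.11, under 1.5-fold. Of 14 chaperones 0 were called, with a median of -0.05. In the other IFN-γ comparisons, whose differences from this one were not tested for these lists, the counts were as follows. Of the S phase genes 13 were higher and 1 lower in LE+IFNy against LE, with a median of 0.45, 5 were higher and 2 lower in SE+IFNy against SE, with a median of 0.22, and 0 were higher and 5 lower in PE+IFNy against PE, with a median of -0.06. Of the 8 RNAs without poly(A) tails 1 was higher and 0 lower for LE, 0 were higher and 1 lower for SE, and 0 were higher and 2 lower for PE.

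With the peptides alone no member passed the test. edgeR called 0 of the 12 in LE, SE or PE against PBS, where 0.0535%, 2.65% and 3.77% of all genes were called, and DESeq2 also called 0. At an unadjusted p under 0.05 there were 3, 1 and 2. Without replicate 2 of every group, PE against PBS gave 2 calls, 1 in each direction. Hist1h1c differed from PBS by -0.10 ± 0.07, -0.06 ± 0.07 and 0.02 ± 0.07 on the log2 scale in LE, SE and PE. Hist1h4i was 3.38, 3.41 and 3.16 CPM in LE and 2.45, 2.13 and 1.88 in PBS, which did not overlap, but its log2 difference of 0.68 ± 0.20 did not pass (adjusted p = 0.085, edgeR). Hist2h2be was lower than PBS by less than 1.5-fold in each, at -0.39 ± 0.11, -0.32 ± 0.11 and -0.42 ± 0.11.

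Between the peptides given with IFN-γ, the calls fell mainly on Hist1h1c, which had the most counts of the 12 tested members. It was 13.7, 13.2 and 13.4 CPM in LE+IFNy, 18.5, 18.1 and 17.2 in SE+IFNy, 27.6, 25.1 and 23.8 in PE+IFNy and, as above, 27.7 to 31.4 in IFNy. LE+IFNy and SE+IFNy lay below every other library, and PE+IFNy lay just below IFNy. Against IFNy, LE+IFNy was -1.15 ± 0.08 (SE, adjusted p = 6.60e-11, edgeR) and SE+IFNy -0.72 ± 0.08. LE+IFNy was also below PE+IFNy, at -0.93 ± 0.08. The interaction of LE with IFN-γ for this gene was -1.05 ± 0.11 (adjusted p = 1.23e-07) and that of SE -0.66 ± 0.11 (adjusted p = 9.99e-05). Without replicate 3 the latter was -0.53, under 1.5-fold.

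**Figure D5:**
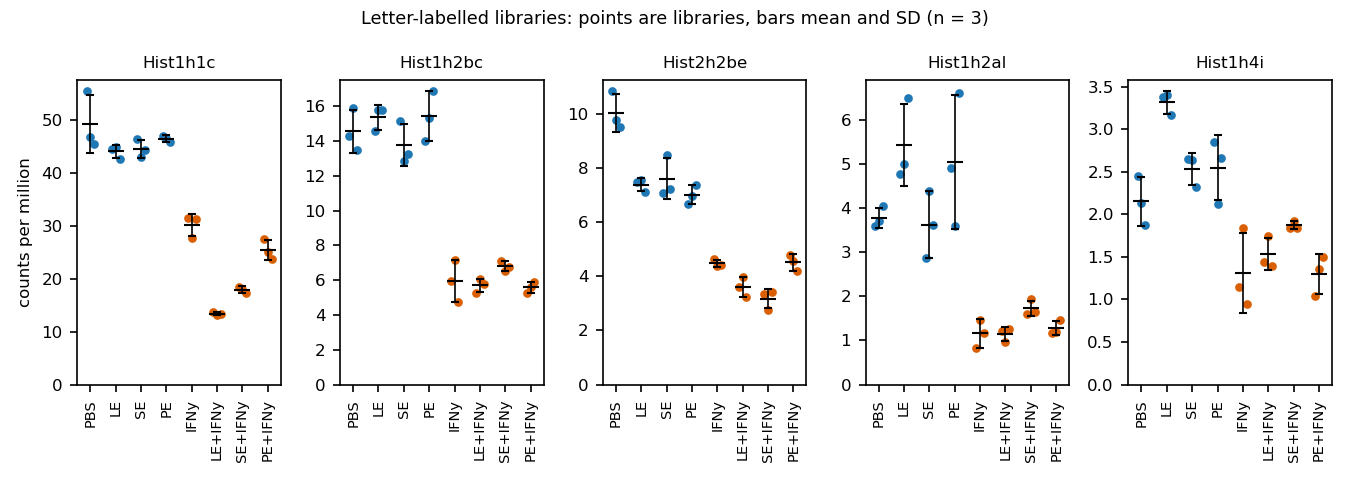
Level in CPM of 5 members in the 24 letter-labelled libraries, by group, with points for libraries, bars for the mean and SD of 3, blue for groups without IFN-γ and orange for groups with it. Hist1h1c falls from 27.7 to 31.4 in IFNy to 13.2 to 13.7 in LE+IFNy, while Hist1h2bc stays between 4.76 and 7.16 in all groups with IFN-γ.

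The other members gave few calls in these comparisons. At an unadjusted p under 0.05 (edgeR) there were 3 of the 12 in LE+IFNy against IFNy and 7 in SE+IFNy against IFNy. In the latter, Hist1h4h at 1.03 ± 0.47 and Hist2h3c2 at -0.82 ± 0.38 had larger fitted log2 changes than Hist1h1c but were not called. LE+IFNy against IFNy called Hist1h1c of the 12 (14.4% of all genes were called), SE+IFNy against IFNy called Hist1h1c and Hist1h1e (6.60%), PE+IFNy against IFNy called 0 (0.183%), and LE+IFNy against PE+IFNy called Hist1h1c (20.3%). LE+IFNy against SE+IFNy (4.12%) and SE+IFNy against PE+IFNy (6.67%) called 0. Where edgeR called 0, DESeq2 did too, and 1, 3 and 5 members had an unadjusted p under 0.05 in PE+IFNy against IFNy, LE+IFNy against SE+IFNy and SE+IFNy against PE+IFNy. The LE, SE and PE interactions (18.9%, 7.96% and 0.00% of all genes) called Hist1h1c, both Hist1h1c and Hist1h1e, and 0 members, and 2 members had an unadjusted p under 0.05 in the last. Hist1h2bc was 5.29 to 6.05 CPM in LE+IFNy and 6.53 to 7.13 in SE+IFNy, against 4.76 to 7.16 in IFNy, and its interactions were -0.19 ± 0.17 and 0.21 ± 0.17 on the log2 scale. Hist1h1e rose in SE+IFNy against IFNy by 1.45 ± 0.53 (adjusted p = 0.047, edgeR). It rested on 14, 21 and 7 counts against 2, 7 and 6, and was lost without replicate 1 or 2, with DESeq2 and with no filter on low counts. Its SE interaction of 2.48 ± 0.74 was lost in each leave-out of a replicate number. Without replicate 3, SE+IFNy against PE+IFNy gave 1 call.

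In LE+IFNy the replication genes moved otherwise than the 12 tested histone members, while the other 57 members could not be compared. The kit named in the methods captures RNA by its poly(A) tail, so the 12 need not stand for histone mRNA as a whole. Of 31 S phase genes 24 were higher in LE+IFNy than in IFNy, with a median log2 fold change of 0.88, against a median of -0.17 over the 12 histone members and -0.01 over all genes. Pcna, the sliding clamp of the replication fork, rose by 0.88 ± 0.10, Pole by 1.20 ± 0.12 and Mki67 by 1.03 ± 0.13. In SE+IFNy 8 were higher and in PE+IFNy 0. Slbp differed from IFNy by 0.49 ± 0.11 in LE+IFNy, under 1.5-fold, and Npat by 0.38 ± 0.14. Of the chaperones 3 of 14 were higher, and of the 8 RNAs without poly(A) tails 0 were called.

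The genes whose level over the 24 letter-labelled libraries was most like that of a member were named for the 3 members highest per length. For Hist1h1c these included Msmo1 (Pearson's r of log2 CPM 0.983) and Sgsh (0.983). For Hist1h2bc they were Maged2 (0.988), Wsb2 (0.984) and Dgkz (0.982), and for Hist1h2al Zfp651 (0.962), Olfm1 (0.957) and Maged2 (0.956). The points share libraries and the IFN-γ groups, and no test was made.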

How the data were processed

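RNA-seq was performed on 48 RAW264.7 libraries. Per the study's methods, the authors prepared poly(A) libraries from 200 ng of RNA, generated 100 bp single-end reads and deposited raw read counts per gene, from uniquely aligned reads, made with featureCounts on GENCODE M12 (GRCm38.p5). The labels name the library kit differently. Whether both label series were prepared alike was not tested. The aligner and strand setting are not given in the sources used here. The submitters' notes also name DESeq2 1.16.1 and R 3.4.1. Totals were 14115928 to 42574154 counts per library.

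Counts were fitted with edgeR 4.0.16 (TMM scaling, filterByExpr, quasi-likelihood test, Benjamini-Hochberg adjustment over all genes tested), with DESeq2 1.42.0 as an alternative. Genes were called at an adjusted p under 0.05 and over 1.5-fold. The label series were compared over 16 means (8 groups in 2 series), and groups in the 24 letter-labelled libraries. On simulated counts the fit recovered 81% of 200 genes changed 2-fold for IFNy against PBS (13096 genes) and 95% between the series (15139 genes). The members and gene lists were chosen with earlier results of these data known. Named were called members, the 12 highest per length, members without counts, up to 4 genes per list, and Slbp, Npat, H2afz, H3f3b and Mki67. Other members named were chosen after their values were seen. Some genes that the rule named are not reported here.

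Transcripts came from GENCODE M21, in which all 69 members were found. In it, a window of 100 bases counted as shared when another gene's transcript held it on either strand. Transcripts that overlap the member count too, and a shared window need not keep reads from being counted. Hist2h3b, with 100% of its windows shared, had 54384 counts over the HLA-labelled libraries. Libraries of 1 group and series differed by more than sampling noise (lowest chi-square per degree of freedom 3.89). The deviations of same-numbered letter-labelled libraries correlated by over 0.1 in every replicate number in 3 of 28 pairs of groups. This rule does not show that the libraries of the other pairs deviated independently. Alternatives were other scaling, no filter, the replicate block, leave-outs, fits of the groups compared, and the HLA-labelled libraries.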

Additional observations from a re-analysis of the deposited data

Results flagged for a closer look

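Hist2h2be was set apart in 1 group. Over the 6 PBS libraries, on log2 of CPM, the gap between its lowest library and the next, divided by the whole range, was 0.723. This was above Dixon's 95% value. It was 1 of 104 groups of 6 examined (the 12 members tested and their sum in 8 groups). Chance sets apart about 1 in 20 single groups of like samples, but each of these holds both label series, so that rate does not apply as such.

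The response of Hist1h1c to a peptide differed with and without IFN-γ, by an edgeR interaction of -1.05 on the log2 scale for LE (adjusted p = 1.23e-07) and -0.66 for SE (adjusted p = 9.99e-05). Every LE+IFNy and SE+IFNy library lay below every IFNy library. The SE interaction of Hist1h1e was 2.48 (adjusted p = 0.0203, edgeR), from 2 to 21 counts per library.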

How the results depend on the processing

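Between the label series, 57 members were called higher without any one replicate number and with library totals alone. The same number was called higher without the groups whose HLA-labelled libraries go against their label (chosen after seeing the data). In the libraries labelled PBS alone, Hist2h2be was -0.0799. Members reaching at least 1 count, rather than 10, in every letter-labelled library numbered 13, and the summed ratio without Hist1h1c (also chosen after seeing the data) was 87.2. Leaving out a replicate number gave 4 to 7 calls for IFNy against PBS, 0 to 2 for PE against PBS, 1 to 3 for SE+IFNy against IFNy, 0 to 1 for SE+IFNy against PE+IFNy and 0 to 2 for the SE interaction. In the IFN-γ comparisons within a peptide, calls of Hist3h2a, Hist1h4h and Hist1h2bg were also lost in leave-outs. A fit of the 2 groups compared gave 5 calls for IFNy against PBS, 2 for LE+IFNy against IFNy, 1 for SE+IFNy against IFNy and 1 for LE+IFNy against SE+IFNy. No filter on low counts gave 1 call for PE against PBS, SE+IFNy against IFNy and SE+IFNy against PE+IFNy, and 2 for the LE interaction, as did DESeq2 size factors. DESeq2 gave 1 for SE+IFNy against IFNy and 1 for the SE interaction. The causes were not tested.

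The HLA-labelled libraries alone, as labelled, gave 0 calls for IFNy against PBS, SE+IFNy against IFNy, SE+IFNy against SE, LE+IFNy against PE+IFNy and the SE interaction. They gave 43 for LE against PBS, 53 for PE against PBS, 21 for LE+IFNy against IFNy, 12 for PE+IFNy against IFNy, 46 for LE+IFNy against LE, 51 for PE+IFNy against PE, 30 for LE+IFNy against SE+IFNy, 18 for SE+IFNy against PE+IFNy, 50 for the LE and 52 for the PE interaction. Log2 fold changes turned for IFNy against PBS in Hist2h2be (0.26), Hist2h3c2 (0.0375), Hist1h4i (0.53), Hist1h4h (0.59), Hist1h1e (0.57), Hist1h2bc (0.43), Hist1h1c (0.63) and Hist1h2al (0.43), for LE+IFNy against LE in Hist2h2be (0.16) and Hist3h2a (0.75), for SE+IFNy against SE in Hist1h2bc (0.31), Hist1h1c (0.29) and Hist1h2al (0.33), for PE+IFNy against PE in Hist2h2be (0.24) and Hist3h2a (0.80), and for the SE interaction of Hist1h1e (-0.27). Both series with the series as a block gave 0 calls for IFNy against PBS, SE+IFNy against IFNy, SE+IFNy against SE, LE+IFNy against PE+IFNy and the SE interaction, 22 for LE against PBS, 40 for PE against PBS, 27 for LE+IFNy against LE, 43 for PE+IFNy against PE, 1 for LE+IFNy against SE+IFNy, 2 for SE+IFNy against PE+IFNy and 1 for the PE interaction, and turned Hist1h4i (0.0146), Hist1h4h (0.20) and Hist1h1e (0.15) in IFNy against PBS. Among the HLA-labelled libraries 4 groups go against their IFN-γ label. These values therefore hold for the labels only and cannot be read as effects of IFN-γ or of a peptide. LE and PE against PBS, for example, set mean IFN-γ target levels of 7.25 and 7.16 against 1.44 in the HLA-labelled libraries. The HLA-labelled columns do not stand beside the letter-labelled ones of the same label in the table, and their order was not used.

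With the replicate number as a block, IFNy against PBS again gave 8 calls, and no other call changed. Correlations of the deviations of same-numbered letter-labelled libraries ran from -0.12 to 0.24. All 3 were over 0.1 in 3 of 28 pairs of groups (LE, SE and PE with each other), which were not compared with each other here. No paired analysis was possible because the label series share no replicate number.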
